A study of Mus musculus with 18 samples.

Results

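The 32 genes described here encode enzymes of sterol synthesis, enzymes of fatty acid synthesis, proteins that control both pathways, and a pair of transporters that carry sterols out of cells. They were given as a list of gene symbols and were found in the deposited count table by Ensembl ID, all 32 among its 55487 genes. By role, the list holds 7 enzymes of the mevalonate segment, 11 enzymes that act between farnesyl diphosphate and cholesterol, 5 genes of sterol control and sterol transfer, 7 genes of fatty acid synthesis, elongation and desaturation, and 2 efflux transporters. A filter on low counts left 13150 genes for testing, among them 31 of the 32. Fdps, which makes farnesyl diphosphate, did not pass it. The cells were CD8+ T cells from spleens and lymph nodes of wild-type C57BL/6J mice, sorted by flow cytometry on 41BB (CD137), a costimulatory receptor of activated T cells encoded by Tnfrsf9. The 41BB+ cells, called Tpam in the study, were set against 41BB- cells, called conventional CD8+ T cells. For the 0 h groups RNA was extracted from freshly sorted cells, and the others had been stimulated in culture for 24 h or 72 h with anti-CD3/anti-CD28 beads, which engage the T cell receptor and its main costimulatory receptor. The 6 groups of 3 libraries were thus 41BB+ and 41BB- cells at each of the 3 times, with no library from cells cultured without beads, and the sort alone separates the 2 populations. The labels call the libraries biological triplicates but do not say whether each was 1 animal or a pool, so p-values measure the spread between these libraries.

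Cells build cholesterol from acetyl-CoA through mevalonate, isoprenoid units, squalene and lanosterol, and build fatty acids from the same acetyl-CoA through malonyl-CoA. When membrane sterol is scarce, the protein Scap carries the membrane-bound factors SREBP1 and SREBP2 (encoded by Srebf1 and Srebf2) to the Golgi, where they are cut free to switch on these enzymes, while Insig1 holds the complex back when sterol is plentiful. When oxysterols accumulate, liver X receptors (LXR) switch on the efflux transporters Abca1 and Abcg1 and also Srebf1. In T cells, activation through the receptor is known to raise SREBP-driven lipid synthesis ahead of cell division.

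Levels are given as CPM, read counts scaled to a common library size with each library's TMM factor. Fold changes are log2 ratios of 41BB+ over 41BB- cells, or of the later over the earlier time, with their standard error (SE), and "adjusted p" is the Benjamini-Hochberg value over all 13150 genes from the edgeR quasi-likelihood test. A gene "passed" where that value was under 0.05. Library totals ran from 3085241 to 4239795 counts. Tnfrsf9, the gene of the sort, stood at 379.9 ± 32.8 CPM in 41BB+ cells at 0 h, against 6.62 ± 1.75 CPM in 41BB- cells (here and below ± is the SD of 3 libraries for a level and the SE for a log2 fold change). At 24 h it stood at 140 ± 9.10 against 171 ± 9.02 CPM (log2 fold change -0.29 ± 0.19 (SE), adjusted p = 0.621). At 72 h it was lower in 41BB+ cells, at 22.4 ± 11.7 against 54.3 ± 9.14 CPM (log2 fold change -1.28 ± 0.23 (SE), adjusted p = 0.000355). The names 41BB+ and 41BB- thus give the sort and not the Tnfrsf9 level at 24 h or 72 h. The CD8 T cell markers (Cd3d, Cd3e, Cd3g, Cd2, Lck, Cd8a, Cd8b1) were detected in every library. Their summed level was lower in 41BB+ libraries at 0 h (2132 to 2443 CPM, against 3315 to 3814 CPM in 41BB- libraries) and 24 h (1231 to 1318 against 1499 to 1549 CPM) and higher at 72 h (2709 to 3036 against 2163 to 2609 CPM). At 0 h 6 of the 7 passed as lower, all but Lck, with Cd8b1 at log2 fold change -1.15 ± 0.14 and Cd2 at -1.10 ± 0.14, none passed at 24 h, and at 72 h Cd3d, Lck and Cd8b1 passed as higher. Cd4 averaged at most 0.577 CPM in any group. A single library stood apart: 41BB+ replicate 2 at 24 h held 69.6 summed CPM of the 8 myeloid markers (Lyz2 and Csf1r among them), against 2.11 to 12.8 summed CPM in the 41BB- libraries at 24 h, so counts of calls at 24 h are also given without it. Foxp3, a marker of regulatory T cells, averaged 19.1 ± 8.10 CPM in 41BB+ cells and 5.32 ± 2.47 CPM in 41BB- cells at 72 h (log2 fold change 1.84 ± 0.55 (SE), adjusted p = 0.0178), and 2.86 ± 1.97 against 0.508 ± 0.880 CPM at 0 h (log2 fold change 2.40 ± 0.83 (SE), adjusted p = 0.0214), with overlapping ranges. Cd40lg, listed with Cd4 and Foxp3 as a CD4 T cell marker, went the other way. It was lower in 41BB+ cells at 72 h (log2 fold change -2.12 ± 0.70 (SE), adjusted p = 0.0326) and did not pass at 0 h (log2 fold change -0.73 ± 0.76 (SE), adjusted p = 0.503). Itgax, a marker of dendritic cells, averaged 15.99 ± 9.19 CPM in 41BB+ cells and 4.92 ± 1.22 CPM in 41BB- cells at 0 h (adjusted p = 0.0831). The part of these markers in the results below was not tested.

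The sequence just before the start of 6 members was set out first, because these genes stood on opposite sides at 0 h: the first 5 were higher in 41BB+ cells and the last was lower. Each line gives 180 bases before the RefSeq transcript start on GRCm38.p6, written 5′ to 3′ on the gene's strand. Capitals mark a core of the sterol regulatory element (TCACNCCAC, where N is any base), an E box (CACGTG) or a CCAAT box, the letters bound by NF-Y, each on either strand.
Hmgcs1, chr13:119690171-119690350, + strand: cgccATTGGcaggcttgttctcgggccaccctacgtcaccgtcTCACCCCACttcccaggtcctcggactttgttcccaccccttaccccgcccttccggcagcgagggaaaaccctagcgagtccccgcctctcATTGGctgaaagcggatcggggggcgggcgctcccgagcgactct
Idi1, chr13:8885426-8885605, + strand: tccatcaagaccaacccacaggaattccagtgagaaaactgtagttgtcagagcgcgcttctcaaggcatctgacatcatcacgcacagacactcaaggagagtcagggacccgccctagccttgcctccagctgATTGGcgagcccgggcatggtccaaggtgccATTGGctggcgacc
Cyp51, chr5:4104698-4104877, - strand: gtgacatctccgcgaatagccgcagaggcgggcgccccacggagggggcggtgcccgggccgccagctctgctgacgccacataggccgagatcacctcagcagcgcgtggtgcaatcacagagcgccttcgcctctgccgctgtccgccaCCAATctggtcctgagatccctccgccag
Lss, chr10:76531425-76531604, + strand: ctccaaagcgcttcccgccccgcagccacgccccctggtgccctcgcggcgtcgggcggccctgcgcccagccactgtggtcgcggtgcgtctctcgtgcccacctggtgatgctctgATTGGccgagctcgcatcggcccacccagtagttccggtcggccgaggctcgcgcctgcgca
Fasn, chr11:120824548-120824727, - strand: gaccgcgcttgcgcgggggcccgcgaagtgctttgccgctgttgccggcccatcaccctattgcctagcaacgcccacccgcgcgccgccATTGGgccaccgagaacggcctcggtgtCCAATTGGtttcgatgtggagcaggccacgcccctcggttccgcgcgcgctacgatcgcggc
Abca1, chr4:53159896-53160075, - strand: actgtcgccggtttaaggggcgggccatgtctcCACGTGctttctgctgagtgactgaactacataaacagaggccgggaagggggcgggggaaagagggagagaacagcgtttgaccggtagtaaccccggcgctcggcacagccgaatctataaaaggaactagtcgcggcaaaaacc
Only exact matches to these letters were sought. A sterol regulatory element with other letters would be missed, so a line without a match is not shown to lack one. An exact match to the core of the sterol regulatory element was found in the Hmgcs1 line (TCACCCCAC) and in no other of the 6. In the full windows searched, from 250 bases before to 50 after the start, it was the single match among the 30 windows of the 24 members that RefSeq's promoter table held, and 1.24% of all 32851 windows held a match. At least 1 CCAAT box lay in 19 of the 30 member windows (63.3%), against 37.4% of all windows and 38.0% of the 11827 windows of tested genes. For the sterol enzymes this was 14 of 18 windows (77.8%), including those of Hmgcs1, Idi1, Cyp51 and Lss printed above. CCAAT boxes also lay in windows of members without a call at 0 h: Mvd, Tm7sf2, Ebp, Sc5d, Dhcr7, Insig1 and Srebf1. The windows of Scap, which was higher at 0 h, held none, and of the efflux transporters only Abca1 had a window. The 6 lines therefore do not tell whether a box goes with the direction at 0 h. In the Fasn line 2 of its 3 CCAAT boxes overlap on opposite strands (CCAATTGG). The GC box GGGCGG, which Sp1 binds, lay in 23 of 30 member windows (76.7%), against 61.4% of the windows of tested genes, and the E box in 7 of 30, against 9.94% of the windows of tested genes. These are matches of letters and not measured binding sites.

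Before activation the 41BB+ cells held more RNA of 11 of the 17 tested sterol enzymes and of Fasn, Acaca and Fads1, and less RNA of both efflux transporters, than the 41BB- cells. Of these, Mvk, Pmvk, Lss, Nsdhl and Fads1 each did not pass in at least 1 fit with a single library left out. At 24 h no sterol enzyme passed in either direction. At 72 h the 41BB+ cells held less RNA of 7 of the 17 sterol enzymes and of 5 of the 7 fatty acid genes. Among these, Dhcr7, Sqle, Scd1 and Fads2 each did not pass in at least 1 fit with a single library left out. At 0 h, 17 of 31 tested members were higher in 41BB+ cells, where 22.2% of all tested genes were higher, and 3 were lower, where 17.3% of all were lower. The median log2 fold change over the 31 was 0.56, against 0.01 over all tested genes. At 24 h, 1 member was higher (Scd2, where 1.67% of all genes were higher) and 1 lower (Abca1, where 1.07% were lower), a share of the 31 near the background in both directions. Their median was 0.13, against 0.02 over all genes. At 72 h, 1 member was higher (Abca1, where 6.71% of all genes were higher) and 14 were lower, where 12.2% of all genes were lower, with a median of -0.58, against -0.04 over all genes. Among the 31, 9 were higher at 0 h and lower at 72 h: Hmgcs1, Idi1, Sqle, Lss, Cyp51, Nsdhl, Stard4, Fasn and Acaca. Over all tested genes 9.41% had both calls. Another 8 were higher at 0 h with no call later, and 7 (Acat2, Mvd, Tm7sf2, Ebp, Sc5d, Insig1 and Elovl6) passed at no time. In bulk RNA, fewer cells of a type and less RNA per cell cannot be told apart, and this holds for every level below.

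**Figure D1:**
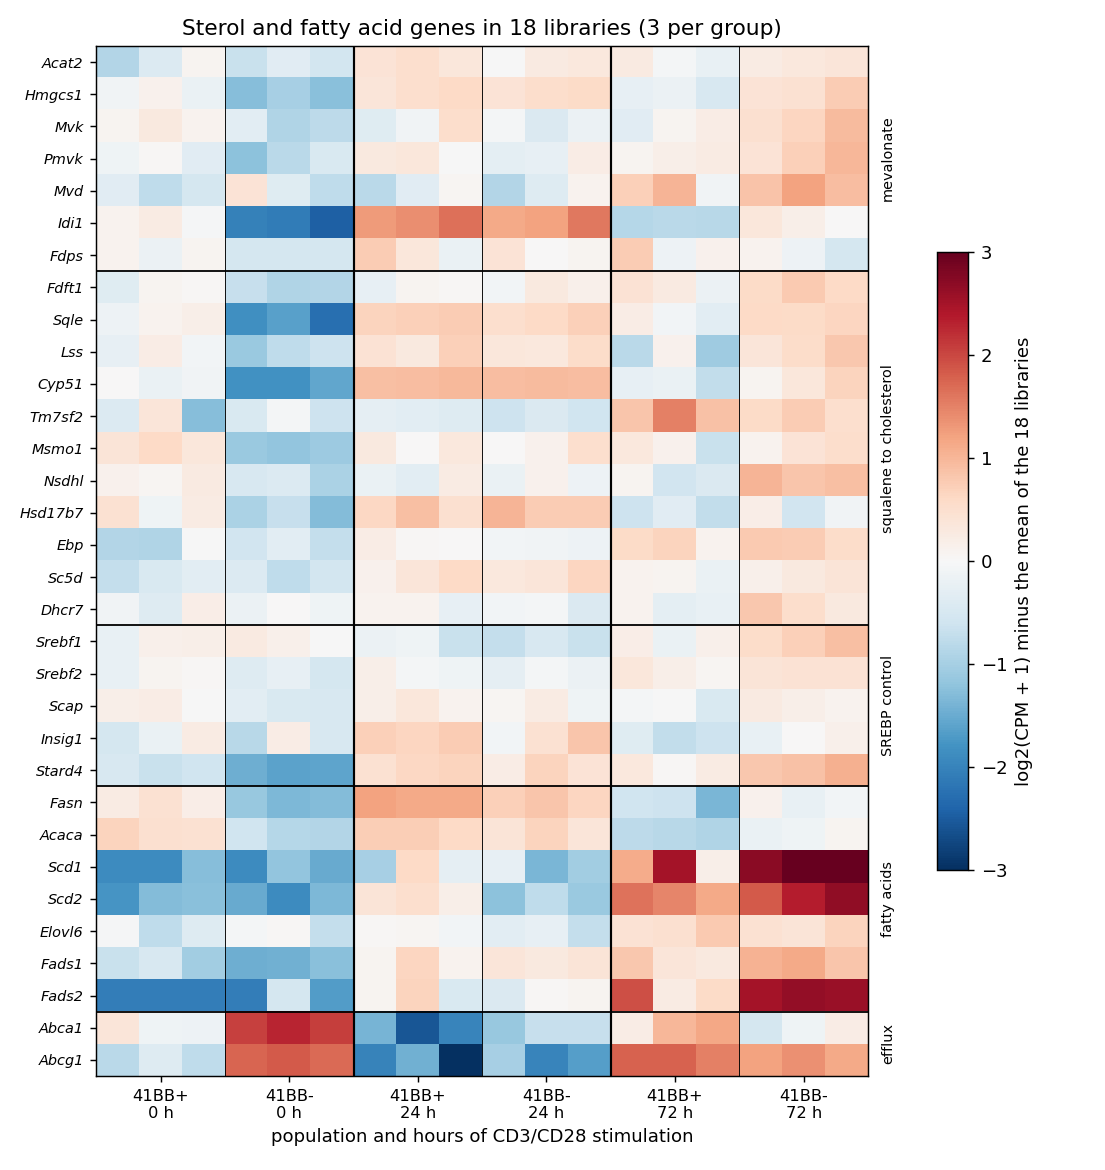
Level of each of the 32 members, the untested Fdps included, in each of the 18 libraries, as log2(CPM + 1) minus the gene's mean over the 18 libraries. Members are in rows by role and libraries in columns by time and population. Idi1, Hmgcs1, Sqle and Cyp51 are lowest in the 41BB- libraries at 0 h, high in all 6 libraries at 24 h and lower again in the 41BB+ libraries at 72 h, while Abca1 and Abcg1 show the reverse at 24 h.

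In the mevalonate segment the isomerase gene Idi1 (chr13:8885501-8892451, + strand), which interconverts the isoprenoid units, differed by the largest fold of the segment at 0 h. Idi1 stood at 50.5, 55.7 and 45.5 CPM in the 41BB+ libraries at 0 h, against 10.7, 10.1 and 7.77 CPM in the 41BB- libraries. No 41BB- library came near the lowest 41BB+ library, and the difference was 5.30-fold (log2 fold change 2.41 ± 0.19 (SE), adjusted p = 4.40e-11). At 24 h it stood at 116, 125 and 149 CPM in 41BB+ cells, against 104, 109 and 143 CPM in 41BB- cells. At 72 h it stood at 25.4, 26.2 and 25.8 CPM in 41BB+ cells, against 59.6, 53.2 and 47.3 CPM in 41BB- cells. The ranges overlapped at 24 h (log2 fold change 0.13 ± 0.15 (SE), adjusted p = 0.824), while at 72 h every 41BB+ library lay below every 41BB- library (log2 fold change -1.05 ± 0.17 (SE), adjusted p = 4.65e-05). The synthase gene Hmgcs1 (chr13:119690379-119708260, + strand), which joins acetyl-CoA to acetoacetyl-CoA, followed the same order. Hmgcs1 stood at 73.7, 87.7 and 69.5 CPM in the 41BB+ libraries at 0 h, against 32.3, 39.4 and 32.9 CPM in the 41BB- libraries. The 24 h levels were 104, 114 and 122 CPM in 41BB+ cells, against 107, 115 and 119.6 CPM in 41BB- cells. The 72 h levels were 67.1, 71.2 and 56.8 CPM in 41BB+ cells, against 107, 109.8 and 136 CPM in 41BB- cells. The groups did not overlap at 0 h (log2 fold change 1.14 ± 0.15 (SE), adjusted p = 3.33e-07) or at 72 h (log2 fold change -0.86 ± 0.14 (SE), adjusted p = 5.79e-05), and they overlapped at 24 h. Exons of the antisense genes Gm48574 and Gm48342 share 323 bases with Idi1 and 557 bases with Hmgcs1, and without a recorded strand setting their reads cannot be told apart. Of the 6 mevalonate genes tested, 4 were higher in 41BB+ cells at 0 h, where 22.2% of all tested genes were higher. None passed at 24 h, and 2 (Idi1 and Hmgcs1) were lower at 72 h, where 12.2% of all were lower. The other 2 that were higher at 0 h were the kinases of the segment, Mvk with 13.6 ± 1.201 CPM in 41BB+ cells and 7.34 ± 1.85 CPM in 41BB- cells (log2 fold change 0.89 ± 0.31 (SE), adjusted p = 0.0226), and Pmvk with 12.2 ± 1.73 and 7.34 ± 2.19 CPM in the same order (log2 fold change 0.72 ± 0.29 (SE), adjusted p = 0.0476). Neither kinase call passed with each library in turn left out: Mvk did not pass without 41BB+ replicate 2, 41BB- replicate 2 or 41BB- replicate 3 (adjusted p 0.0775 to 0.0991), and Pmvk did not pass without 41BB+ replicate 1, 41BB+ replicate 2, 41BB+ replicate 3, 41BB- replicate 1 or 41BB- replicate 2 (adjusted p 0.0536 to 0.247). Pmvk also did not pass in 6 of 8 other settings (adjusted p 0.0560 to 0.1675), DESeq2 and voom among them, and Mvk in 1 of 8 (0.0677). Acat2, an acetyl-CoA acetyltransferase, and Mvd, the decarboxylase, passed at no time between the populations. Fdps had 32 counts over all 18 libraries, at most 5 in any one. The annotated gene Gm43738 shares 1124 exonic bases with it on the same strand and held 6 counts in all. The treatment of reads in such shared exons is not recorded, so no change is given for Fdps.

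From squalene to cholesterol, 7 of the 11 enzymes were higher in 41BB+ cells at 0 h, where 22.2% of all tested genes were higher. None passed at 24 h, and 5 were lower at 72 h, where 12.2% of all were lower. No enzyme of this segment or of the mevalonate segment passed in the other direction at 0 h or 72 h. Squalene epoxidase, Sqle (chr15:59315077-59331192, + strand), adds the oxygen that allows ring closure. Sqle stood at 29.0, 34.8 and 36.7 CPM in the 41BB+ libraries at 0 h, against 8.23, 9.78 and 5.98 CPM in the 41BB- libraries. After 24 h of stimulation, Sqle reached 51.5, 53.1 and 55.4 CPM in 41BB+ cells, against 46.1, 49.5 and 53.5 CPM in 41BB- cells. After 72 h, Sqle stood at 37.9, 30.1 and 25.8 CPM in 41BB+ cells, against 48.9, 48.1 and 50.7 CPM in 41BB- cells. The 41BB+ libraries lay 4.18-fold above the 41BB- libraries at 0 h with no overlap (log2 fold change 2.06 ± 0.21 (SE), adjusted p = 4.91e-09), overlapped them at 24 h, and lay below all of them at 72 h (log2 fold change -0.65 ± 0.18 (SE), adjusted p = 0.00886). The call at 72 h did not pass without 41BB+ replicate 2, 41BB+ replicate 3 or 41BB- replicate 3 (adjusted p 0.0522 to 0.0938). Cyp51 (chr5:4081145-4104746, - strand) removes the first methyl group of lanosterol. Cyp51 stood at 60.5, 51.5 and 55.4 CPM in the 41BB+ libraries at 0 h, against 16.1, 16.1 and 19.7 CPM in the 41BB- libraries. At 24 h it stood at 113, 114 and 118 CPM in 41BB+ cells, against 114, 116 and 115 CPM in 41BB- cells. At 72 h it stood at 50.2, 52.0 and 35.1 CPM in 41BB+ cells, against 63.1, 75.3 and 96.0 CPM in 41BB- cells. The populations were apart at 0 h (log2 fold change 1.68 ± 0.18 (SE), adjusted p = 1.06e-08), within 115 ± 2.55 CPM in 41BB+ cells and 115 ± 1.10 CPM in 41BB- cells at 24 h, and apart in the opposite direction at 72 h (log2 fold change -0.77 ± 0.16 (SE), adjusted p = 0.000846). 166 exonic bases of Cyp51 also lie in an exon of Akap9, so a part of its reads could belong to that gene.

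The enzymes that follow Cyp51 in removing methyl groups, Msmo1, Nsdhl and Hsd17b7, were all higher in 41BB+ cells at 0 h. Msmo1 averaged 39.1 ± 3.92 CPM in 41BB+ cells and 12.4 ± 0.434 CPM in 41BB- cells at 0 h (log2 fold change 1.65 ± 0.24 (SE), adjusted p = 1.71e-06), and Hsd17b7 averaged 12.1 ± 2.61 CPM in 41BB+ cells and 4.82 ± 1.205 CPM in 41BB- cells (log2 fold change 1.33 ± 0.32 (SE), adjusted p = 0.00144). Neither passed at 72 h (adjusted p = 0.249 and 0.312 by edgeR). Nsdhl passed in both directions: it averaged 15.3 ± 1.27 CPM in 41BB+ cells against 8.71 ± 1.87 CPM in 41BB- cells at 0 h (log2 fold change 0.81 ± 0.28 (SE), adjusted p = 0.0197), and 11.1 ± 3.07 CPM against 26.8 ± 1.88 CPM at 72 h (log2 fold change -1.27 ± 0.26 (SE), adjusted p = 0.000908). Lss, which closes squalene epoxide into lanosterol, also passed in both directions (log2 fold change 0.81 ± 0.25 at 0 h, adjusted p = 0.0109, and -1.11 ± 0.24 at 72 h, adjusted p = 0.00151). At 0 h, Nsdhl did not pass without 41BB+ replicate 3 or 41BB- replicate 3 (adjusted p 0.0734 to 0.113), nor Lss without 41BB+ replicate 2 or 41BB- replicate 1 (adjusted p 0.0753 to 0.0797). 381 exonic bases of Lss overlap the antisense gene 4930483K19Rik. Fdft1, which makes squalene, was higher at 0 h (log2 fold change 0.78 ± 0.19 (SE), adjusted p = 0.00154) and had a log2 fold change of -0.47 ± 0.18 at 72 h (adjusted p = 0.0608). Its exons share 774 bases with the antisense gene Ctsb, and the strand setting of the counting is not recorded. Of the last enzymes of the chain, Dhcr7 was lower in 41BB+ cells at 72 h (log2 fold change -0.71 ± 0.22 (SE), adjusted p = 0.0251), a call that did not pass without 41BB+ replicate 2, 41BB+ replicate 3, 41BB- replicate 1 or 41BB- replicate 2 (adjusted p 0.0806 to 0.190). Tm7sf2, Ebp and Sc5d passed at no time. Tm7sf2 shares 532 exonic bases with Vps51 on the same strand.

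**Figure D2:**
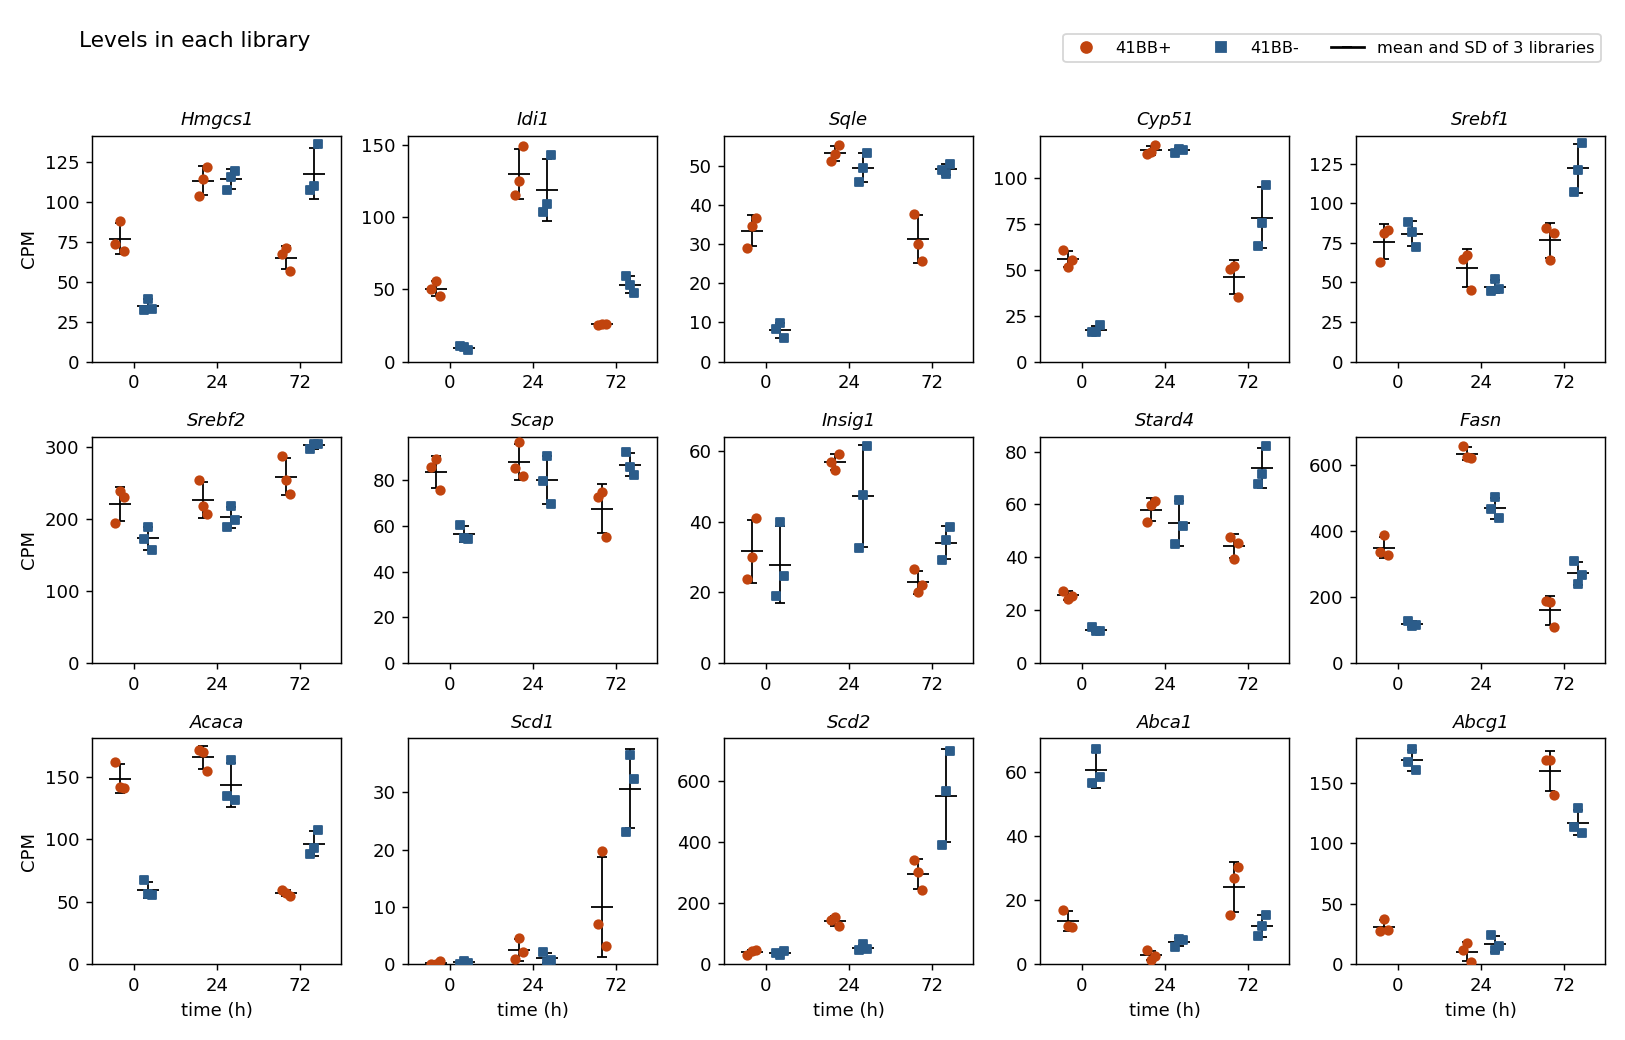
Level in CPM at 0, 24 and 72 h for the members described library by library, with 1 point per library and 41BB+ and 41BB- cells in separate colours. A short line marks each group mean, with a bar of 1 SD (n = 3 libraries each). The 41BB+ and 41BB- points of Idi1, Sqle and Cyp51 overlap at 24 h, with the 41BB+ cells higher at 0 h and lower at 72 h, and Abca1 and Abcg1 fall in both populations at 24 h.

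Of the 5 genes of sterol control and transfer, 3 were higher in 41BB+ cells at 0 h, where 22.2% of all tested genes were higher. None passed at 24 h, and 2 were lower at 72 h, where 12.2% of all were lower. Srebf2 (chr15:82147181-82205379, + strand) encodes SREBP2, which drives sterol synthesis. Srebf2 stood at 194, 239.7 and 231 CPM in the 41BB+ libraries at 0 h, against 173, 189.7 and 158 CPM in the 41BB- libraries. The 24 h levels were 255, 218 and 207 CPM in 41BB+ cells, against 189.6, 219 and 199 CPM in 41BB- cells. The 72 h levels were 288, 255 and 236 CPM in 41BB+ cells, against 298, 305 and 305 CPM in 41BB- cells. The groups did not overlap at 0 h, where 41BB+ cells were 1.28-fold higher (log2 fold change 0.35 ± 0.11 (SE), adjusted p = 0.0146). They did not overlap at 72 h either, with 41BB+ libraries below, but that difference did not pass (log2 fold change -0.22 ± 0.11 (SE), adjusted p = 0.185). The call at 0 h did not pass without 41BB+ replicate 2, 41BB+ replicate 3, 41BB- replicate 1 or 41BB- replicate 3 (adjusted p 0.0566 to 0.0973). Scap (chr9:110333288-110384950, + strand), the escort of both SREBPs, came in the same order. Scap stood at 85.6, 89.4 and 75.7 CPM in the 41BB+ libraries at 0 h, against 60.3, 54.9 and 54.1 CPM in the 41BB- libraries. At 24 h it stood at 85.6, 96.7 and 81.7 CPM in 41BB+ cells, against 79.6, 90.8 and 69.8 CPM in 41BB- cells. At 72 h it stood at 72.6, 74.9 and 55.1 CPM in 41BB+ cells, against 92.2, 85.6 and 82.3 CPM in 41BB- cells. It was higher at 0 h with no overlap (log2 fold change 0.56 ± 0.14 (SE), adjusted p = 0.00219), and at 72 h every 41BB+ library lay below every 41BB- library without passing (log2 fold change -0.36 ± 0.14 (SE), adjusted p = 0.0761). 985 of its exonic bases overlap an antisense gene, 5830462I19Rik.

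Srebf1 (chr11:60199089-60222581, - strand), whose SREBP1 products drive mainly fatty acid synthesis and which is itself a target of LXR, did not share the difference at 0 h. Srebf1 stood at 63.0, 81.5 and 83.0 CPM in the 41BB+ libraries at 0 h, against 88.1, 82.0 and 72.4 CPM in the 41BB- libraries. After 24 h of stimulation, Srebf1 reached 64.7, 67.2 and 45.4 CPM in 41BB+ cells, against 44.3, 51.9 and 45.6 CPM in 41BB- cells. After 72 h, Srebf1 stood at 84.6, 63.9 and 81.2 CPM in 41BB+ cells, against 107, 121 and 138 CPM in 41BB- cells. The ranges overlapped at 0 h and 24 h, and at 72 h all 41BB+ libraries were below all 41BB- libraries (log2 fold change -0.67 ± 0.16 (SE), adjusted p = 0.00270). Insig1 (chr5:28071363-28078662, + strand), which retains Scap and is itself induced by SREBPs, passed at no time. Insig1 stood at 23.7, 29.99 and 41.1 CPM in the 41BB+ libraries at 0 h, against 18.9, 40.1 and 24.5 CPM in the 41BB- libraries. The 24 h levels were 56.9, 54.7 and 59.3 CPM in 41BB+ cells, against 32.5, 47.7 and 61.6 CPM in 41BB- cells. The 72 h levels were 26.5, 20.1 and 22.04 CPM in 41BB+ cells, against 29.1, 34.8 and 38.4 CPM in 41BB- cells. Its libraries overlapped at 0 h and 24 h, and at 72 h the 41BB+ libraries lay below the 41BB- libraries without passing (log2 fold change -0.57 ± 0.25 (SE), adjusted p = 0.118). Stard4, a soluble carrier of sterol between membranes, passed at 0 h and 72 h. Stard4 stood at 27.3, 24.1 and 25.2 CPM in the 41BB+ libraries at 0 h, against 13.4, 11.99 and 12.3 CPM in the 41BB- libraries. After 24 h of stimulation, Stard4 reached 53.2, 59.6 and 61.3 CPM in 41BB+ cells, against 44.9, 61.6 and 51.9 CPM in 41BB- cells. After 72 h, Stard4 stood at 47.8, 39.3 and 45.5 CPM in 41BB+ cells, against 67.7, 71.7 and 82.0 CPM in 41BB- cells. The populations did not overlap at 0 h (log2 fold change 1.02 ± 0.19 (SE), adjusted p = 5.50e-05) or at 72 h (log2 fold change -0.74 ± 0.16 (SE), adjusted p = 0.00113), with opposite signs, and overlapped at 24 h.

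Of the 7 genes of fatty acid synthesis and modification, 3 were higher and 1 lower in 41BB+ cells at 0 h. Of all tested genes 22.2% were higher and 17.3% lower at 0 h, so the 1 lower gene is near the background. At 24 h 1 was higher (1.67% of all genes), and at 72 h 5 were lower (12.2% of all genes). Fasn (chr11:120805846-120824547, - strand) encodes the synthase that builds palmitate and had the highest level per exon length of all members in 41BB+ cells at 0 h and 24 h. Fasn stood at 336, 387 and 326 CPM in the 41BB+ libraries at 0 h, against 127, 111 and 115 CPM in the 41BB- libraries. At 24 h it stood at 657, 623 and 621 CPM in 41BB+ cells, against 465, 503 and 439 CPM in 41BB- cells. At 72 h it stood at 187, 183 and 108 CPM in 41BB+ cells, against 308, 240.1 and 265 CPM in 41BB- cells. It was 2.97-fold higher in 41BB+ cells at 0 h (log2 fold change 1.57 ± 0.15 (SE), adjusted p = 1.90e-09) and lower at 72 h (log2 fold change -0.77 ± 0.14 (SE), adjusted p = 0.000363), without overlap at either time. At 24 h the 41BB+ libraries again lay above all 41BB- libraries, without passing (log2 fold change 0.43 ± 0.14 (SE), adjusted p = 0.109). Acaca (chr11:84129672-84401651, + strand) encodes the carboxylase that supplies malonyl-CoA. Acaca stood at 162, 142 and 141 CPM in the 41BB+ libraries at 0 h, against 67.03, 56.2 and 55.0 CPM in the 41BB- libraries. The 24 h levels were 171, 169.9 and 155 CPM in 41BB+ cells, against 135, 163 and 132 CPM in 41BB- cells. The 72 h levels were 59.2, 57.2 and 54.5 CPM in 41BB+ cells, against 88.1, 93.1 and 108 CPM in 41BB- cells. The 41BB+ libraries were 2.49-fold higher at 0 h (log2 fold change 1.32 ± 0.13 (SE), adjusted p = 2.09e-09) and lower at 72 h (log2 fold change -0.76 ± 0.13 (SE), adjusted p = 0.000104), and the ranges overlapped at 24 h.

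The stearoyl-CoA desaturases Scd1 and Scd2, which introduce the first double bond into saturated fatty acids, are described together. Their genes lie close together on chromosome 19 (Scd2 at chr19:44293674-44306864, + strand, Scd1 at chr19:44394455-44407879, - strand). Scd2 stood at 31.5, 43.9 and 45.0 CPM in the 41BB+ libraries at 0 h, against 37.8, 29.0 and 42.2 CPM in the 41BB- libraries. After 24 h of stimulation, Scd2 reached 144, 154 and 123 CPM in 41BB+ cells, against 46.1, 64.5 and 50.04 CPM in 41BB- cells. After 72 h, Scd2 stood at 341, 301 and 242 CPM in 41BB+ cells, against 391, 566 and 696 CPM in 41BB- cells. Scd2 overlapped between the populations at 0 h, was 2.61-fold higher in 41BB+ cells at 24 h (log2 fold change 1.39 ± 0.20 (SE), adjusted p = 0.000401), and was lower at 72 h (log2 fold change -0.90 ± 0.19 (SE), adjusted p = 0.00158), with no overlap at the later times. It was the single member that passed at 24 h with every library in turn left out, including 41BB+ replicate 2, the library with myeloid RNA, without which 236 of all tested genes passed, against 361 with it. Scd1 stood at 0, 0 and 0.520 CPM in the 41BB+ libraries at 0 h, against 0, 0.631 and 0.299 CPM in the 41BB- libraries. At 24 h it stood at 0.858, 4.61 and 2.06 CPM in 41BB+ cells, against 2.11, 0.442 and 0.790 CPM in 41BB- cells. At 72 h it stood at 7.0, 19.8 and 3.19 CPM in 41BB+ cells, against 23.1, 36.6 and 32.3 CPM in 41BB- cells. Scd1 was close to 0 in both populations at 0 h (2 counts in all 41BB+ libraries and 3 in all 41BB- libraries) and reached 100 counts in 41BB+ cells and 338 in 41BB- cells at 72 h. The summed level at 72 h was 0.322 of that in 41BB- cells (95% interval 0.255 to 0.404, counting error only), and the test gave log2 fold change -1.62 ± 0.53 (SE), adjusted p = 0.0336. That call did not pass without 41BB+ replicate 1, 41BB+ replicate 3, 41BB- replicate 1, 41BB- replicate 2 or 41BB- replicate 3 (adjusted p 0.0533 to 0.151). Per exon length, Scd2 stood far above Scd1 in each group, at a mean of 53.9 RPKM against 2.04 RPKM in 41BB+ cells and 101 RPKM against 6.27 RPKM in 41BB- cells at 72 h.

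The desaturases of polyunsaturated fatty acids, Fads1 and Fads2, whose genes also lie close together on chromosome 19, were low. Fads1 stood at 10.3, 11.9 and 7.81 CPM in the 41BB+ libraries and 5.48, 5.68 and 6.58 CPM in the 41BB- libraries at 0 h (log2 fold change 0.75 ± 0.28 (SE), adjusted p = 0.0324), a call that did not pass without 41BB+ replicate 1, 41BB+ replicate 2, 41BB- replicate 1 or 41BB- replicate 2 (adjusted p 0.0812 to 0.146). The Fads1 call also did not pass in 4 of 8 other settings (adjusted p 0.0658 to 0.114), DESeq2 and voom among them. Fads2 had 0 counts in the 41BB+ libraries at 0 h and 7 in the 41BB- libraries, at least 2.61-fold lower against a floor of 3 counts over the group (adjusted p = 0.0345 by edgeR), and did not pass without 41BB+ replicate 1, 41BB+ replicate 2, 41BB+ replicate 3 or 41BB- replicate 2 (adjusted p 0.0752 to 0.345). At 72 h Fads2 had 82 counts in 41BB+ cells and 265 in 41BB- cells, a ratio of 0.337 (95% interval 0.260 to 0.433, counting error only). Its test at 72 h (log2 fold change -1.57 ± 0.49 (SE), adjusted p = 0.0263) did not pass without 41BB+ replicate 2, 41BB+ replicate 3, 41BB- replicate 1, 41BB- replicate 2 or 41BB- replicate 3 (adjusted p 0.0694 to 0.143). Elovl6, which elongates palmitate, passed at no time.

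Opposite to the enzymes, both efflux transporters were lower in 41BB+ cells at 0 h, where 17.3% of all tested genes were lower. Abca1 (chr4:53030787-53159895, - strand) passes cholesterol to lipid-poor apolipoprotein. Abca1 stood at 17.02, 11.9 and 11.7 CPM in the 41BB+ libraries at 0 h, against 56.7, 67.2 and 58.3 CPM in the 41BB- libraries. The 24 h levels were 4.29, 1.35 and 2.58 CPM in 41BB+ cells, against 5.42, 7.73 and 7.64 CPM in 41BB- cells. The 72 h levels were 15.5, 26.8 and 30.4 CPM in 41BB+ cells, against 8.70, 11.8 and 15.4 CPM in 41BB- cells. The 41BB+ libraries were below all 41BB- libraries at 0 h (log2 fold change -2.16 ± 0.28 (SE), adjusted p = 3.05e-07) and 24 h (log2 fold change -1.35 ± 0.38 (SE), adjusted p = 0.0487) and above them at 72 h (log2 fold change 1.01 ± 0.29 (SE), adjusted p = 0.0123), where the lowest 41BB+ library at 15.5 CPM and the highest 41BB- library at 15.4 CPM nearly touched. At 24 h the call did not pass without 41BB+ replicate 2, 41BB+ replicate 3, 41BB- replicate 1, 41BB- replicate 2 or 41BB- replicate 3 (adjusted p 0.0557 to 0.296), and at 72 h it did not pass without 41BB+ replicate 3 or 41BB- replicate 1 (adjusted p 0.0583 to 0.0589). Abcg1 (chr17:31057675-31117988, + strand), which passes cholesterol to lipoprotein particles, came in the same order at 0 h. Abcg1 stood at 27.6, 37.3 and 28.4 CPM in the 41BB+ libraries at 0 h, against 168, 178 and 160.3 CPM in the 41BB- libraries. After 24 h of stimulation, Abcg1 reached 11.4, 17.3 and 2.06 CPM in 41BB+ cells, against 24.1, 11.7 and 15.01 CPM in 41BB- cells. After 72 h, Abcg1 stood at 169, 169 and 140.3 CPM in 41BB+ cells, against 114, 129 and 109 CPM in 41BB- cells. Its groups were apart at 0 h (log2 fold change -2.44 ± 0.34 (SE), adjusted p = 2.77e-05) and overlapped at 24 h. At 72 h the 41BB+ libraries lay above the 41BB- libraries without passing (log2 fold change 0.45 ± 0.30 (SE), adjusted p = 0.361). Markers of other cells are given beside the transporters. The summed level of the 8 myeloid markers was 9.90 to 13.7 CPM in 41BB+ libraries against 7.26 to 9.27 CPM in 41BB- libraries at 0 h, 5.15 to 69.6 CPM against 2.11 to 12.8 CPM at 24 h, and 3.48 to 7.61 CPM against 5.14 to 7.61 CPM at 72 h, with Itgam at 0 in every group and Lyz2, Csf1r and Cd14 also at 0 at 72 h. B cell markers differed at 0 h too, at 91.5 to 97.3 summed CPM in 41BB+ libraries against 228 to 254 summed CPM in 41BB- libraries, nearly all of it Ighm, with Cd79a and Ms4a1 at or near 0. Cd79b was also lower at 0 h, at 3.76 ± 0.575 CPM in 41BB+ cells and 11.5 ± 0.522 CPM in 41BB- cells (log2 fold change -1.61 ± 0.50 (SE), adjusted p = 0.0113). Pax5 was not (log2 fold change 0.23 ± 0.96 (SE), adjusted p = 0.888). The B cell sum was 145 to 218 CPM in 41BB+ libraries against 118 to 150 CPM at 24 h, and 572 to 630 against 436 to 517 CPM at 72 h. At 72 h neither Ighm (log2 fold change 0.29 ± 0.12 (SE), adjusted p = 0.0935) nor Cd79b (0.78 ± 0.50, adjusted p = 0.311) passed. Pecam1, an adhesion molecule of endothelium and of some T cells, was listed as a stromal marker. It averaged 112 ± 12.1 CPM in 41BB+ cells and 223 ± 29.5 CPM in 41BB- cells at 0 h (log2 fold change -0.99 ± 0.19 (SE), adjusted p = 0.000166), 26.5 ± 10.9 against 35.6 ± 4.75 CPM at 24 h, and 252 ± 44.4 against 117 ± 7.94 CPM at 72 h (log2 fold change 1.11 ± 0.19 (SE), adjusted p = 0.000188). Col1a1 and Col1a2, the other stromal markers, averaged at most 1.30 CPM in any group. The part of the myeloid, B cell and stromal markers in these results was not tested.

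**Figure D3:**
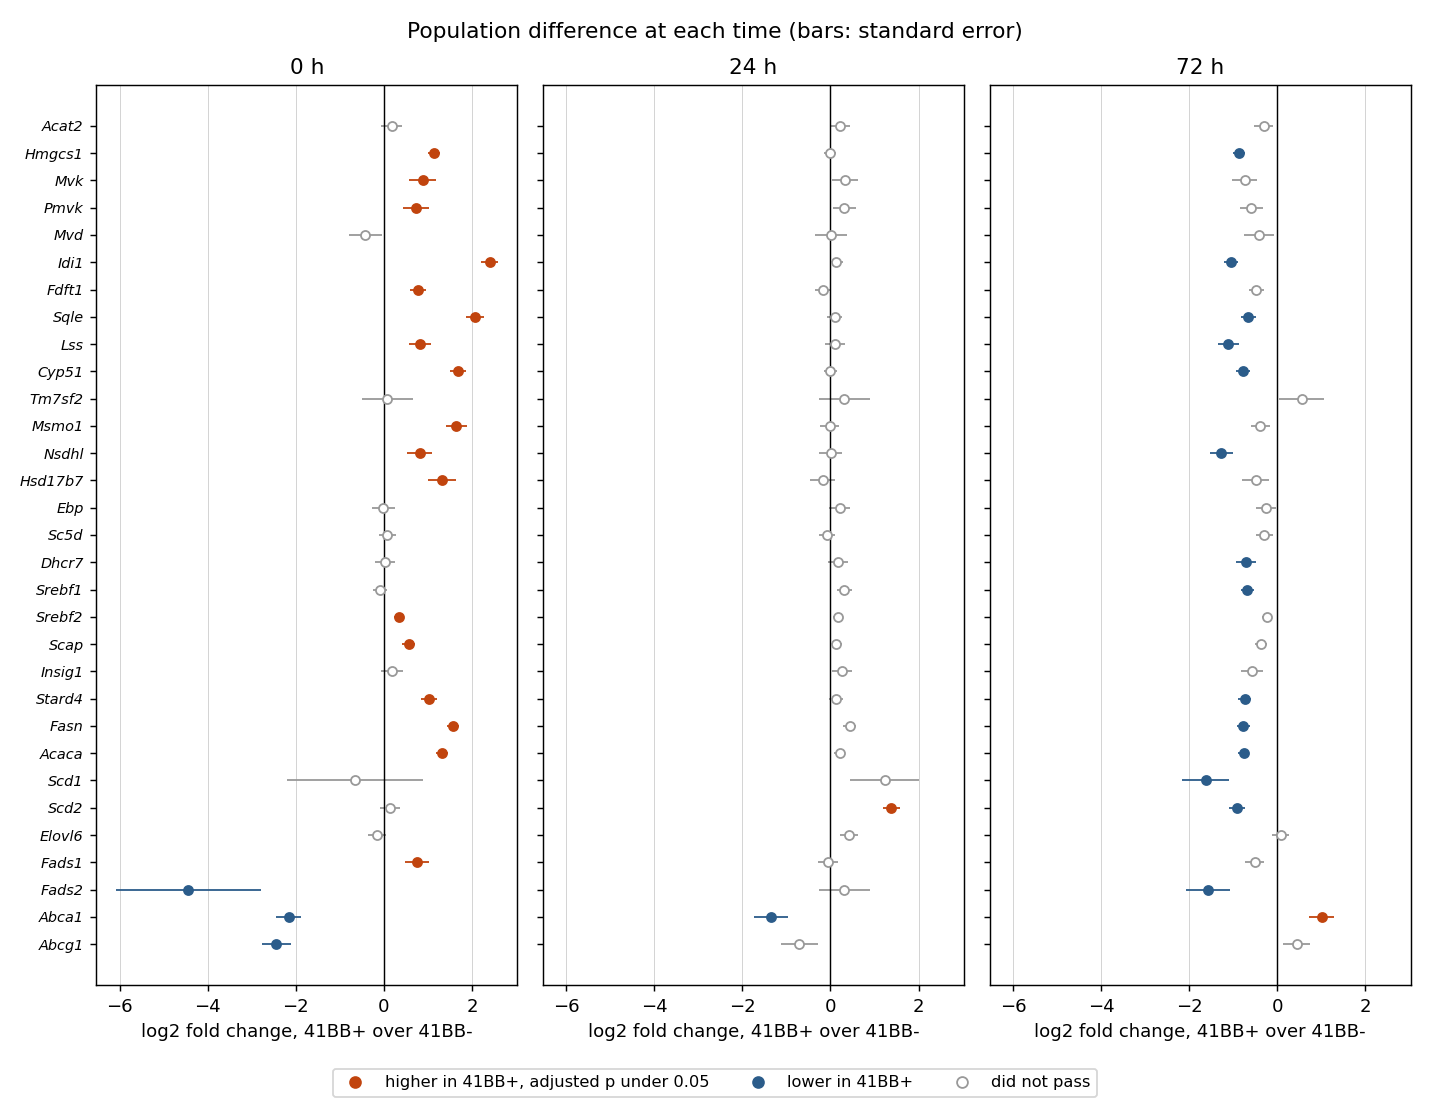
Log2 fold change of 41BB+ over 41BB- cells for each tested member at 0, 24 and 72 h, with members down the page by role, bars of 1 SE, and filled points where the adjusted p was under 0.05. Most enzymes lie right of 0 at 0 h, closer to 0 at 24 h and left of 0 at 72 h, and the efflux transporters lie on the other side at 0 h and 72 h. The point of Fads2 at 0 h rests on a group with 0 counts and is no bound.

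Over the first 24 h of stimulation Idi1, Hmgcs1, Sqle, Cyp51 and Fasn, among others, rose in both populations, and each of these 5 rose more in 41BB- cells by the test of the difference given further on. In 41BB+ cells 14 of 31 members rose, where 18.1% of all tested genes rose, and 2 fell, where 16.5% fell. In 41BB- cells 19 rose, where 29% of all genes rose, and 3 fell, where 27.6% fell. The median log2 fold change of the members was 0.50 in 41BB+ cells and 0.78 in 41BB- cells, against -0.06 and -0.07 over all genes. Idi1 rose with log2 fold changes of 1.36 ± 0.15 in 41BB+ cells and 3.63 ± 0.19 in 41BB- cells, Sqle with 0.67 ± 0.17 and 2.63 ± 0.21, and Fasn with 0.85 ± 0.14 and 1.99 ± 0.15, in the same order (SE, adjusted p at most 0.00364 by edgeR). Acaca and Msmo1 rose in 41BB- cells (1.27 and 1.42), and their log2 fold changes in 41BB+ cells were 0.15 and -0.24 without passing (adjusted p = 0.350 and 0.404). The sterol carrier Stard4 rose in both (1.18 ± 0.16 in 41BB+ and 2.07 ± 0.18 in 41BB- cells). Against them, both transporters fell in both populations. Abca1 fell by 2.30 ± 0.36 on the log2 scale in 41BB+ cells and by 3.12 ± 0.30 in 41BB- cells, and Abcg1 by 1.61 ± 0.40 and 3.34 ± 0.36 in the same order. The fall of Abcg1 in 41BB+ cells did not pass with the compared groups alone in the fit (adjusted p = 0.0879 by edgeR). The remaining member that fell in 41BB- cells was Srebf1 (log2 fold change -0.78 ± 0.16 (SE), adjusted p = 0.000187). Fads2 rose at least 13.5-fold in 41BB+ cells against the floor of 3 counts over the group. Scd1 had 28 counts in 41BB+ cells at 24 h and 2 at 0 h, a ratio of 13.9 (95% interval 3.50 to 120, counting error only, adjusted p = 0.0113 by edgeR). Without 41BB+ replicate 2 at 24 h, 16 members passed in 41BB+ cells, as with it, and the rise of Scd1 did not pass (adjusted p = 0.0696 by edgeR).

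Between 24 h and 72 h more members fell than rose in 41BB+ cells, and more rose than fell in 41BB- cells. In 41BB+ cells 7 members rose, where 26.2% of all genes rose, and 11 fell, where 26.3% fell (18 passed without 41BB+ replicate 2 at 24 h too). Of the 31 tested, the 7 that rose are near the background and the 11 that fell are not far above it. In 41BB- cells 18 rose, where 22.6% rose, and 5 fell, where 18.2% fell, so the 5 are near the background. The members' median log2 fold change was -0.12 in 41BB+ cells and 0.58 in 41BB- cells, against 0.03 and 0.04 over all genes. Idi1, Cyp51, Hsd17b7, Fasn and Acaca fell in both populations: Fasn by 1.99 ± 0.15 on the log2 scale in 41BB+ cells and by 0.79 ± 0.14 in 41BB- cells, Idi1 by 2.33 ± 0.16 and 1.16 ± 0.15 in the same order. Hmgcs1, Sqle and Lss fell in 41BB+ cells (-0.80, -0.77 and -1.03), and their log2 fold changes in 41BB- cells were 0.05, -0.01 and 0.19 without passing. Stard4 fell in 41BB+ cells (log2 fold change -0.39 ± 0.16 (SE), adjusted p = 0.0377) and rose in 41BB- cells (log2 fold change 0.48 ± 0.15 (SE), adjusted p = 0.0134). It did not pass in 41BB+ cells without 41BB+ 24 h replicate 2, 41BB+ 24 h replicate 3, 41BB+ 72 h replicate 2 or 41BB+ 72 h replicate 3 (adjusted p 0.0607 to 0.148), nor in 41BB- cells without 41BB- 24 h replicate 1, 41BB- 24 h replicate 3 or 41BB- 72 h replicate 3 (adjusted p 0.0867 to 0.161). The stearoyl-CoA desaturases rose, Scd2 with a log2 fold change of 1.07 ± 0.19 in 41BB+ cells, against 3.36 ± 0.21 in 41BB- cells. Scd1 reached 338 counts at 72 h in 41BB- cells, against 12 at 24 h, a ratio of 29.6 (95% interval 16.7 to 57.9, counting error only). The rise of Scd1 in 41BB+ cells (log2 fold change 1.97 ± 0.62 (SE), adjusted p = 0.00929) did not pass without 41BB+ 72 h replicate 2 (adjusted p 0.186). Srebf1 rose in 41BB- cells (log2 fold change 1.37 ± 0.16 (SE), adjusted p = 7.72e-08) and had 0.38 in 41BB+ cells (adjusted p = 0.0506). Both transporters rose in 41BB+ cells and Abcg1 in 41BB- cells, while the rise of Abca1 in 41BB- cells passed narrowly (adjusted p = 0.0469 by edgeR). The log2 fold change of Abca1 was 3.14 ± 0.34 in 41BB+ cells and 0.78 ± 0.31 in 41BB- cells. For Abcg1 it was 3.97 ± 0.38 in 41BB+ cells and 2.81 ± 0.36 in 41BB- cells. The rise of Abca1 in 41BB- cells did not pass without 41BB- 24 h replicate 1, 41BB- 24 h replicate 2, 41BB- 24 h replicate 3, 41BB- 72 h replicate 2 or 41BB- 72 h replicate 3 (adjusted p 0.0887 to 0.302), nor in 7 of 8 other settings (adjusted p 0.0513 to 0.145), DESeq2 and voom among them. By 72 h, Abca1 stood at 24.2 ± 7.81 CPM in 41BB+ cells and 11.97 ± 3.37 CPM in 41BB- cells, against 13.5 ± 3.02 and 60.7 ± 5.67 CPM at 0 h.

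The 7 members that passed at no time between the populations did change over time. Acat2 rose in the first 24 h in both (log2 fold change 0.79 ± 0.22 in 41BB+ cells and 0.75 ± 0.23 in 41BB- cells, SE), as did Sc5d, the sterol desaturase (0.88 ± 0.19 and 1.04 ± 0.19 in the same order). Mvd rose between 24 h and 72 h (1.00 ± 0.35 in 41BB+ cells and 1.42 ± 0.35 in 41BB- cells), as did Tm7sf2, a sterol reductase (1.75 ± 0.54 and 1.5 ± 0.55), and Elovl6 (0.59 ± 0.20 and 0.94 ± 0.20). Their calls in 41BB+ cells were at adjusted p = 0.0183, 0.00723 and 0.0143 by edgeR. Mvd did not pass there without 41BB+ 24 h replicate 1 or 41BB+ 72 h replicate 2 (adjusted p 0.0893 to 0.114), nor Elovl6 without 41BB+ 24 h replicate 3 or 41BB+ 72 h replicate 3 (adjusted p 0.05002 to 0.0717), and in 41BB- cells Tm7sf2 did not pass with any of the 6 libraries left out (adjusted p 0.0588 to 0.0901). Insig1 rose in the first 24 h in 41BB+ cells (log2 fold change 0.84 ± 0.24 (SE), adjusted p = 0.00735) and in 41BB- cells (log2 fold change 0.77 ± 0.24 (SE), adjusted p = 0.00958), and fell afterwards in 41BB+ cells (log2 fold change -1.31 ± 0.25 (SE), adjusted p = 6.24e-05). Its rise in 41BB- cells did not pass without 41BB- 0 h replicate 1 or 41BB- 24 h replicate 3 (adjusted p 0.0601 to 0.0602). Ebp, the sterol isomerase, rose in 41BB+ cells in the first interval (log2 fold change 0.66 ± 0.25 (SE), adjusted p = 0.0396) and in 41BB- cells in the second (log2 fold change 0.85 ± 0.24 (SE), adjusted p = 0.00509), and the first of these did not pass without 41BB+ 0 h replicate 1, 41BB+ 0 h replicate 2 or 41BB+ 24 h replicate 1 (adjusted p 0.0906 to 0.136).

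**Figure D4:**
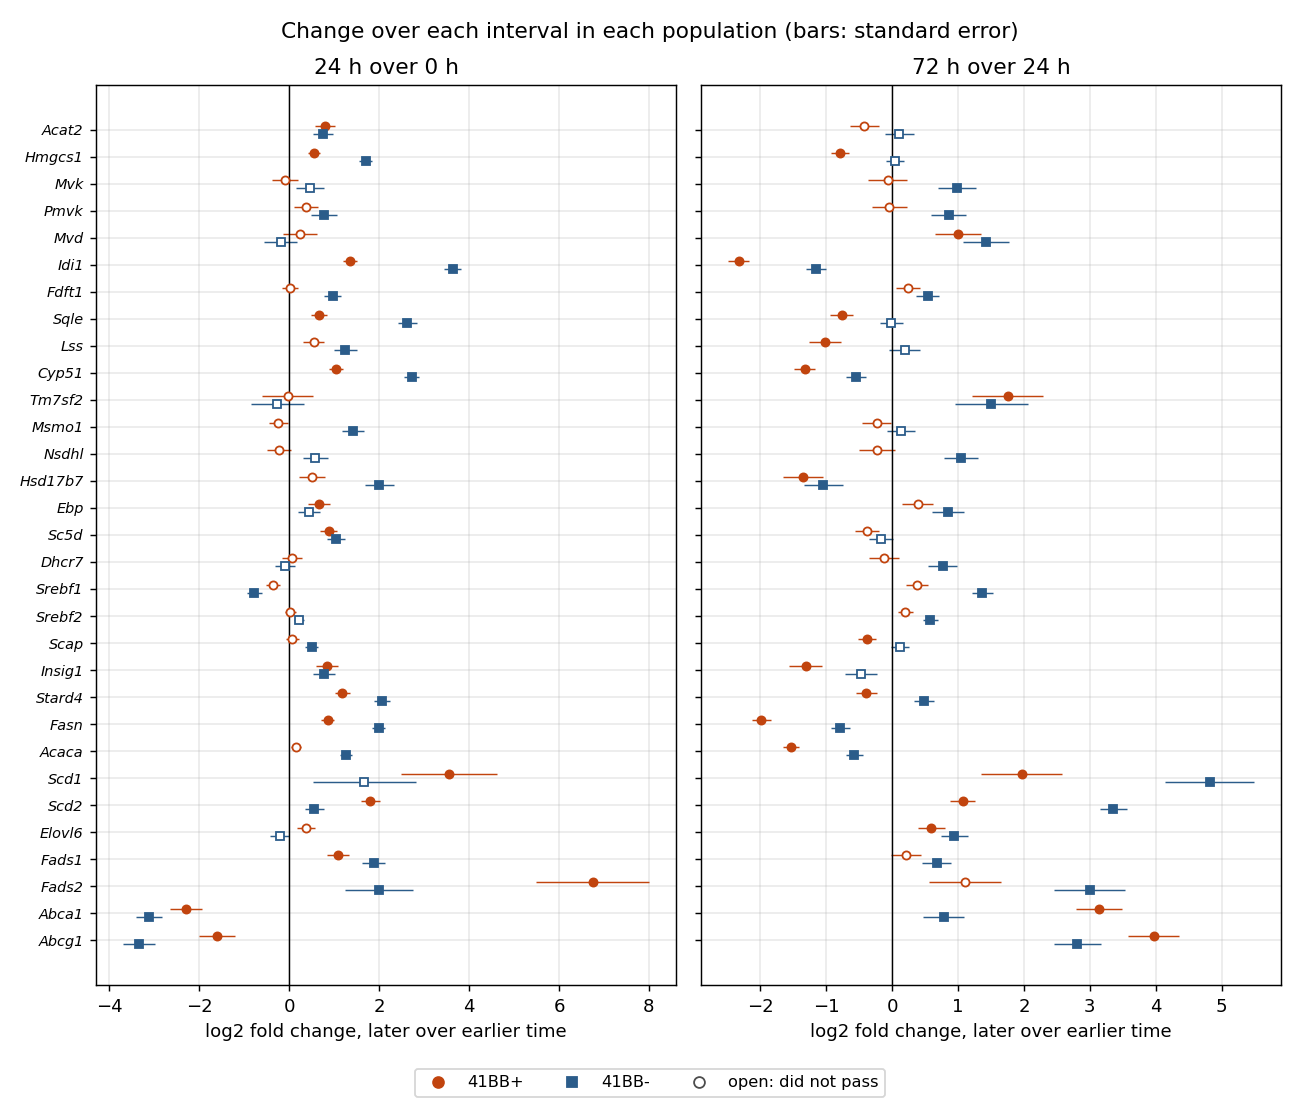
Log2 fold change of each tested member over each interval (24 h over 0 h, 72 h over 24 h) in 41BB+ and 41BB- cells, with bars of 1 SE and filled points where the adjusted p was under 0.05. Idi1, Sqle, Cyp51 and Fasn lie further right in 41BB- cells in the first interval and further left in 41BB+ cells in the second. The point of Fads2 at 24 h over 0 h in 41BB+ cells rests on a group with 0 counts and is no bound.

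Whether the populations changed unequally was tested directly, as the log2 fold change in 41BB+ cells minus that in 41BB- cells. From 0 to 24 h, 2 members gave a positive difference, where 9.03% of all genes did, and 10 a negative one, where 14% did. From 24 to 72 h the counts were 1 positive (6.1% of all genes) and 12 negative (11.4%). From 0 to 72 h they were 2 positive (17.6%) and 19 negative (23.3%), with a median over the members of -1.04, against -0.04 over all genes. These comparisons share the libraries of each population and time with those above and are not separate evidence. For Idi1 the difference was -2.28 ± 0.24 from 0 to 24 h (adjusted p = 4.70e-08), -1.18 ± 0.22 from 24 to 72 h (adjusted p = 0.000353) and -3.45 ± 0.25 from 0 to 72 h (adjusted p = 8.65e-12, all by edgeR). Hmgcs1, Sqle, Cyp51, Stard4, Fasn and Acaca were likewise negative in all 3. Without 41BB+ replicate 2 at 24 h, 11 members passed from 0 to 24 h, against 12 with it, and 12 from 24 to 72 h, against 13 with it. Scd2 was positive from 0 to 24 h (difference 1.24 ± 0.30 (SE), adjusted p = 0.00394) and negative from 24 to 72 h (difference -2.29 ± 0.27 (SE), adjusted p = 7.85e-06). Abca1 was positive from 24 to 72 h (difference 2.36 ± 0.47 (SE), adjusted p = 0.000679) and Abcg1 from 0 to 24 h (difference 1.73 ± 0.55 (SE), adjusted p = 0.0322), and both from 0 to 72 h. The negative value of Sqle from 24 to 72 h (difference -0.75 ± 0.24 (SE), adjusted p = 0.0313) did not pass with any 1 of 11 of the 12 libraries left out (adjusted p 0.0654 to 0.131).

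Per exon length, the order of the members within a group changed over time. In 41BB+ cells at 0 h the highest 3 were Fasn at 31.9 RPKM, Srebf2 at 30.9 RPKM and Hmgcs1 at 16.7 RPKM, while in 41BB- cells they were Srebf2 at 24.1 RPKM, Abcg1 at 23.1 RPKM and Srebf1 at 14.3 RPKM (means of 3 libraries). Fasn, Idi1 and Srebf2 led in both populations at 24 h, with 57.9, 37.1 and 31.6 RPKM in 41BB+ cells against 42.8, 33.9 and 28.2 RPKM in 41BB- cells. At 72 h Scd2 led in both, followed by Srebf2. Next came Abcg1 at 21.9 RPKM in 41BB+ cells and Hmgcs1 at 25.6 RPKM in 41BB- cells. Fasn and Srebf2 in 41BB+ cells at 0 h did not differ beyond their spread (31.9 ± 3.01 and 30.9 ± 3.34 RPKM, SD), nor did Srebf2 and Abcg1 in 41BB- cells at 0 h (24.1 ± 2.23 and 23.1 ± 1.22 RPKM).

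Genes of the same pathways outside the 32 were counted in the same way. Of 9 other genes of sterol synthesis and control, all tested, 2 were higher and 1 lower in 41BB+ cells at 0 h, none passed at 24 h, and 2 were lower at 72 h. Of all tested genes 22.2% were higher and 17.3% lower at 0 h, and 12.2% lower at 72 h, so the 0 h counts of these 9 are near or below the background. Their median log2 fold change was -0.11 at 0 h, 0.15 at 24 h and -0.33 at 72 h, against 0.01, 0.02 and -0.04 over all genes tested. Tmem97, which encodes a sterol-responsive membrane protein, passed at 0 h and 72 h (log2 fold change 3.36 ± 0.48 (SE), adjusted p = 2.92e-06 at 0 h and -1.57 ± 0.37, adjusted p = 0.00311 at 72 h). The gene that was lower at 0 h was Lbr, the lamin B receptor, which also holds sterol reductase activity (log2 fold change -0.35 ± 0.13 (SE), adjusted p = 0.0279), and its call did not pass without 41BB+ replicate 1, 41BB+ replicate 2 or 41BB- replicate 1 (adjusted p 0.0583 to 0.117). Of 14 tested genes of fatty acid synthesis among 16 listed, 5 were higher and 3 lower at 0 h, none passed at 24 h and 3 were lower at 72 h, against those same shares of all genes, and their medians were 0.21, 0.13 and -0.23 at 0, 24 and 72 h. The 3 of 14 that were lower at 0 h are near the background. Both enzymes that supply cytosolic acetyl-CoA passed at 0 h, in opposite directions. Acly, which takes it from citrate, averaged 211 ± 8.52 CPM in 41BB+ cells and 146 ± 11.1 CPM in 41BB- cells (log2 fold change 0.53 ± 0.11 (SE), adjusted p = 0.000170). Acss2, which takes it from acetate, averaged 13.1 ± 1.80 CPM in 41BB+ cells and 50.03 ± 6.76 CPM in 41BB- cells (log2 fold change -1.94 ± 0.23 (SE), adjusted p = 8.88e-08). Of the elongases, Elovl1, which acts on saturated and monounsaturated very long chains, was higher in 41BB+ cells at 0 h (log2 fold change 1.18 ± 0.21 (SE), adjusted p = 4.94e-05), and Elovl5, which acts on polyunsaturated chains, was lower (log2 fold change -1.08 ± 0.14 (SE), adjusted p = 2.91e-07). At 72 h Hacd3, a dehydratase of elongation, Acly and Hsd17b12 were lower (-0.78 ± 0.16, -0.43 ± 0.10 and -0.50 ± 0.16, adjusted p = 0.00105, 0.00360 and 0.0313 by edgeR). Acly did not pass at 72 h without 41BB+ replicate 2 or 41BB- replicate 2 (adjusted p 0.0568 to 0.0742), nor Hsd17b12 without 41BB+ replicate 1, 41BB+ replicate 2, 41BB- replicate 1, 41BB- replicate 2 or 41BB- replicate 3 (adjusted p 0.0680 to 0.256).

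Among 11 listed genes of the LXR response and sterol transport, 7 were tested: 1 was higher and 3 lower in 41BB+ cells at 0 h, 1 was lower at 24 h, and 2 were higher and 1 lower at 72 h. Of all tested genes 22.2% were higher and 17.3% lower at 0 h, 1.07% lower at 24 h, and 6.71% higher and 12.2% lower at 72 h, so the single genes higher at 0 h and lower at 72 h are near or below the background. The medians were -0.20, -0.24 and 0.11 at 0, 24 and 72 h. Mylip encodes a ubiquitin ligase induced by LXR. It averaged 31.9 ± 6.40 CPM in 41BB+ cells and 103 ± 20.2 CPM in 41BB- cells at 0 h (log2 fold change -1.69 ± 0.25 (SE), adjusted p = 6.56e-06), 6.48 ± 2.95 against 15.3 ± 0.722 CPM at 24 h (log2 fold change -1.25 ± 0.33 (SE), adjusted p = 0.0353), and 46.0 ± 12.01 against 21.3 ± 8.04 CPM at 72 h (log2 fold change 1.11 ± 0.27 (SE), adjusted p = 0.00414). Like Abca1 it thus stood lower at 0 h and 24 h and higher at 72 h, and at 24 h it did not pass without 41BB+ replicate 1, 41BB+ replicate 3, 41BB- replicate 1, 41BB- replicate 2 or 41BB- replicate 3 (adjusted p 0.0792 to 0.216). Npc2, which hands cholesterol out of lysosomes, was lower at 0 h (log2 fold change -1.40 ± 0.14 (SE), adjusted p = 2.06e-09) and higher at 72 h (log2 fold change 0.63 ± 0.14 (SE), adjusted p = 0.00139). Scarb1, a receptor that takes up cholesterol esters from lipoprotein, went with the enzymes: it averaged 45.6 ± 8.33 CPM in 41BB+ cells and 15.4 ± 1.19 CPM in 41BB- cells at 0 h (log2 fold change 1.56 ± 0.21 (SE), adjusted p = 4.98e-07), and 18.2 ± 1.69 against 41.7 ± 9.67 CPM at 72 h (log2 fold change -1.20 ± 0.20 (SE), adjusted p = 9.69e-05).

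The mitochondrial share of counts at 72 h was 10.9% ± 0.473 in 41BB+ libraries and 9.14% ± 0.373 in 41BB- libraries (SD, n = 3 each, two-sided exact permutation p = 0.1, the smallest this design allows), and it moved with the lower enzyme levels there. Its part in them was not tested. Without mitochondrial and ribosomal genes and the most abundant small RNA gene, 2 of the 162 calls of members over all comparisons were lost.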

How the data were processed

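RNA was measured by sequencing in 18 libraries, 3 from each of 6 groups, prepared per the labels with a SMARTer kit for stranded total RNA (v2). The submitters' processing notes name FastQC 0.11.9 (read quality), Trimmomatic 0.38 (trimming), HISAT2 2.2.1 (alignment), featureCounts (counting) and the build GRCm38. They record neither the strand setting nor how multiply matching reads were treated, so reads of overlapping genes cannot be told apart. The deposited table holds raw whole-number counts of 55487 genes, which the authors did not normalize. GENCODE M21 gave symbols for 55227 of its IDs. Total counts per library ran from 3085241 to 4239795. The chi-square per degree of freedom between replicates of a group was 4.56 to 8.90, so no library duplicated another of its group. Libraries of different groups were not compared in this way.

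Counts were fitted in R 4.3.3 with edgeR 4.0.16: filterByExpr (minimum count 10, minimum total 15), TMM factors and quasi-likelihood F-tests with 1 mean per group over all 18 libraries (common biological coefficient of variation 0.180), with Benjamini-Hochberg adjustment over all 13150 tested genes and calls under 0.05. CPM are counts divided by the library total times its TMM factor, on the usual CPM scale, and RPKM are CPM per kilobase of merged exons. The heat map adds 1 CPM before the log. Intervals of 95% on ratios of counts are exact and cover counting error only. Alternatives were a replicate block (by experiment number, overall or within each time), DESeq2 1.42.0, limma 3.58.1 voom with quality weights, RLE size factors, no filter, the compared groups alone, removal of mitochondrial, ribosomal and the top small RNA genes, and each library left out in turn. The scripts' tests were tried on simulated data. The members, the other pathway lists and the tests were chosen with earlier results of these data known. Library by library values are given for the 2 members of each role group with the smallest adjusted p at 0 h, the 2 with the smallest in the 0 to 72 h difference, and Srebf1, Srebf2, Insig1, Scd1, Scd2, Abca1 and Abcg1. Other members have values where they passed and counts otherwise. Of the other lists, up to 3 genes per comparison of the populations with the smallest adjusted p could be named, and 1 that the rule names is not reported here. Promoter windows came from RefSeq on GRCm38.p6 and were matched by symbol for 24 of 32 members.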

Additional observations from a re-analysis of the deposited data

Results flagged for a closer look

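Each value here is a difference between the populations in their change over time, the log2 fold change in 41BB+ cells minus that in 41BB- cells, and each was singled out because the edgeR quasi-likelihood test of that difference had an adjusted p under 0.05. Comparisons over the 3 intervals share libraries, so the values of 1 gene are not separate evidence. For 7 members all 3 intervals were negative, given as 0 to 24 h, 24 to 72 h and 0 to 72 h. They were Hmgcs1 with -1.15, -0.84 and -2.00, Idi1 with -2.28, -1.18 and -3.45, Sqle with -1.96, -0.75 and -2.72, Cyp51 with -1.68, -0.77 and -2.46, Stard4 with -0.89, -0.87 and -1.76, Fasn with -1.14, -1.20 and -2.34, and Acaca with -1.11, -0.96 and -2.08. For Fdft1 (-0.95 and -1.25), Msmo1 (-1.66 and -2.03) and Hsd17b7 (-1.51 and -1.81) the intervals from 0 h passed. For Lss (-1.21 and -1.92), Nsdhl (-1.27 and -2.08) and Srebf1 (-0.99 and -0.58) the intervals that end at 72 h passed. Only the whole interval from 0 to 72 h passed for Mvk (-1.62), Pmvk (-1.31), Srebf2 (-0.58), Scap (-0.92) and Fads1 (-1.26).

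Scd1 and Scd2 gave negative differences from 24 to 72 h (-2.85 and -2.29), with Scd2 at 1.24 from 0 to 24 h and -1.04 from 0 to 72 h. The efflux transporters gave positive ones: Abca1 2.36 from 24 to 72 h and 3.17 from 0 to 72 h, and Abcg1 1.73 from 0 to 24 h and 2.89 from 0 to 72 h. 7 of these values did not pass with some single library left out: Abcg1 from 0 to 24 h (in 8 of 12 cases, adjusted p 0.0524 to 0.162), Srebf1 from 0 to 72 h (10 of 12, 0.0510 to 0.190), and from 24 to 72 h Nsdhl (6 of 12, 0.0539 to 0.1005), Cyp51 (4 of 12, 0.0504 to 0.106), Lss (3 of 12, 0.0502 to 0.0580), Sqle (11 of 12, 0.0654 to 0.131) and Scd1 (8 of 12, 0.0657 to 0.216). Replicate 3 of the 41BB+ cells at 24 h and replicate 3 of the 41BB+ cells at 72 h were both among the libraries for each of the 5 from 24 to 72 h.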

How the results depend on the processing

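No call of a member changed direction under any alternative, and member values that did not pass were not checked for this. Of 162 calls of members over the 10 comparisons, 122 passed under every alternative, and of 2540 combinations of a call and an alternative 2331 passed and 209 did not. The calls lost numbered 6 with DESeq2, 4 with RLE size factors, 18 without the filter on low counts, 15 with the compared groups alone in the fit, 6 with voom and quality weights, and 2 without mitochondrial, ribosomal and the top small RNA genes. 149 of 158 member counts stayed within 1.5 times that reported. The exceptions were at 24 h, where 2 members passed and 1 did with the replicate block or with RLE size factors, and 1 to 2 with a library left out, and in the difference of change from 24 to 72 h, where 13 passed and 8 to 14 did with a library left out (8 without 41BB+ replicate 3 at 24 h or at 72 h). Over all genes at 24 h, 361 passed, 181 to 261 with a library left out, 491 with DESeq2, and 577 with the replicate block within each time. The cause was not tested. The labels do not say what a shared experiment number means, so the numbers were not taken to pair the samples. Over 12686 autosomal genes, deviations of same-numbered libraries of 1 time correlated with r of -0.0426 to 0.243 (median 0.107, above 0.1 in 5 of 9 pairs). Other numbers of 1 time had a median of -0.0630. By time, same-numbered pairs had r of -0.0426 to 0.0665 at 0 h, 0.107 to 0.221 at 24 h and 0.0806 to 0.243 at 72 h. Other-numbered pairs reached 0.0974, 0.0326 and 0.0576 in the same order. By this autosomal measure same-numbered libraries were more alike than others at 24 h and 72 h and not at 0 h. The Y-linked share of counts, outside this measure, rose with the number in both populations at 0 h. It was 0.0256%, 0.0336% and 0.0389% in 41BB+ libraries and 0.0208%, 0.0354% and 0.0448% in 41BB- libraries. That share also rose with the number in both at 24 h, and at 72 h replicate 3 was lowest in both. What it means for pairing was not tested, and fits with a replicate block are given. With the replicate block 3 calls of members were lost (Abca1 at 24 h, adjusted p = 0.0635 by edgeR, Ebp from 0 to 24 h in 41BB+ cells, 0.0508, and Abca1 from 24 to 72 h in 41BB- cells, 0.0542), and with the block within each time 2 (Pmvk at 0 h, 0.0560, and Scd2 from 0 to 24 h in 41BB- cells, 0.0805). Scaling by library totals alone moved the median log2 fold change of all genes by over 0.1 between the populations at 24 h (-0.09, against 0.02 with TMM) and from 24 to 72 h in 41BB- cells (-0.10, against 0.04). Of 24 calls of the other pathway genes between the populations 19 passed under every alternative. Besides those named with the results, Elovl7 at 0 h was lost without 4 of 6 libraries (adjusted p 0.0925 to 0.209). At 3085241 to 4239795 counts a library, Fdps, Scd1 and Fads2 at 0 h are at or near the floor of 3 counts, so their values at 0 h have little precision.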
